A study of Mus musculus with 6 samples.

Results

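The 10 alpha and beta tubulin isotypes Tubb3, Tubb2a, Tubb2b, Tubb4a, Tubb4b, Tubb5, Tubb6, Tuba1a, Tuba4a and Tuba8 were taken by gene symbol from a table of 22087 genes, and all 10 were found in it. Poly(A) RNA of dorsal root ganglia, which house the cell bodies of sensory neurons of the body, had been sequenced from mice at 3 months of age. There were 3 control libraries, of genotype Kif2a fl/fl, and 3 conditional knockout (cKO) libraries, of genotype Kif2a fl/fl; Avil Cre. Both groups thus carry loxP-flanked Kif2a, and Cre driven by the advillin gene removes it in sensory neurons, so the glia, vessels and immune cells of the ganglion keep it. The labels do not say whether libraries of a group came from separate or pooled animals, and the p-values can speak only of the spread among libraries, part of which may be technical.

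Microtubules are polymers of alpha and beta tubulin dimers, and each subunit is encoded by a family of genes whose products are called isotypes. Isotypes are alike over most of their length and differ chiefly in an acidic tail at the carboxy terminus, where enzymes add glutamate chains and, on alpha tubulin, remove and restore a final tyrosine. Kif2a is a kinesin that takes tubulin dimers off microtubule ends, and free dimers in turn lower the stability of tubulin mRNAs in animal cells. The comparison therefore asks whether tubulin mRNA levels and the mix of isotypes in the ganglion differ when sensory neurons lose Kif2a. Only the cKO genotype carries Avil Cre, so loss of Kif2a cannot be told apart from the Cre allele or from a change of Avil itself.

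The last 60 coding bases before the stop codon, all within the last exon, are shown for 8 members because they encode the tail by which isotype proteins are told apart. They were read 5′ to 3′ on the coding strand from GENCODE M21 transcripts on GRCm38, and capitals mark glutamate codons (GAA or GAG).
Tubb3 (chr8:123421620-123421679, plus strand): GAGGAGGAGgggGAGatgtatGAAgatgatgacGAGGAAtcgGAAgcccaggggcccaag
Tubb2a (chr13:34074471-34074530, minus strand): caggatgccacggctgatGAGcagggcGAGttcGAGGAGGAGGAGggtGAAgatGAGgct
Tubb2b (chr13:34127474-34127533, minus strand): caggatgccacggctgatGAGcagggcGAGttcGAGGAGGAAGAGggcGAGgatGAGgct
Tubb4a (chr17:57080693-57080752, minus strand): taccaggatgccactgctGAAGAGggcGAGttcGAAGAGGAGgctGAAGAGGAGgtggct
Tubb4b (chr2:25222311-25222370, minus strand): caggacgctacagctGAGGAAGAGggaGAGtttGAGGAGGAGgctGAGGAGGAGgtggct
Tubb5 (chr17:35834985-35835044, minus strand): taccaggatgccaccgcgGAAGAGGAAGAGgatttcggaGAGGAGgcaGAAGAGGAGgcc
Tuba4a (chr1:75215625-75215684, minus strand): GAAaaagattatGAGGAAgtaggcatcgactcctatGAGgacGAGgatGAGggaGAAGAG
Tuba8 (chr6:121226017-121226076, plus strand): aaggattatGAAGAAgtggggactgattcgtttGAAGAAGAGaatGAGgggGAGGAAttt

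Between 8 and 10 of the 20 codons in each of these tails encode glutamate. Of the alpha isotypes shown, Tuba4a ends in a glutamate codon without the tyrosine, and Tuba8 ends in a phenylalanine codon. Tubb3 is the only beta member shown whose tail ends in a lysine codon, and its tail shared between 53.7% and 68.9% of aligned bases with the 6 other beta members. Gaps left 54 aligned tail bases with Tubb2a, at 53.7%, and 45 with Tubb2b, at 68.9%, so these shares do not rank the isotypes by likeness. Tubb2a and Tubb2b, which both lie on chromosome 13, were identical at 95% of tail bases and at 96.5% of aligned coding bases. The other 20 pairs of beta members shared between 81.1% and 86.5% of aligned coding bases and between 53.7% and 87.7% of aligned tail bases. The 3 alpha pairs shared between 80.3% and 85.3% of aligned coding bases.

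How far reads can tell an isotype from its relatives was read from the annotated transcripts, as the share of 50-base windows that also occur, on either strand, in a transcript of another gene. For Tubb3 0 of 1819 windows were shared and for Tubb6 0 of 1709, while Tubb5 shared 3 of 2600 and Tubb4a 4 of 2179. Few reads of these 4 genes can thus be confused with another gene at this length. Tubb2a shared 49.6% of windows and Tubb2b 39.3%, with 712 windows in common between them. Tubb4b shared 55.5%, mostly with its pseudogenes Tubb4b-ps1 and Tubb4b-ps2. Tuba1a shared 75.5% of windows with 18 other genes, led by Tuba1c at 46.9% and including Tuba1b at 43.4%. Tuba4a shared 48.8%, nearly all of it with Stk16, which overlaps it on the opposite strand. Tuba8 shared 14.7%, nearly all with the antisense gene Gm15856. The read length, the treatment of reads with several matches and the use of strand in counting are not stated in the labels or the deposited table, so levels of Tubb2a, Tubb2b, Tubb4b, Tuba1a and Tuba4a, and Tuba8 in part, are uncertain in so far as reads were split with these partners. The deposited counts of the beta tubulin pseudogenes were low, from 25 to 53 for Tubb2a-ps2, 8 to 22 for Tubb4b-ps1 and 14 to 23 for Tubb4b-ps2. Partners of Tuba1a varied more, with 4518 to 6108 counts for Tuba1b, 924 to 2229 for Tuba1c and 865 to 2507 for Slc7a11. Gm14150 had 283 to 736 counts, and the lowest was Gm15599 with 14 to 27. Stk16, the main partner of Tuba4a, had 1203 to 1733 counts.

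Total counts per library ranged from 21683083 to 31626625. Levels are given as CPM, counts scaled to a common library size, with totals adjusted by the trimmed mean of M values (TMM), and all 10 members passed the filter on low counts. All 12 sensory neuron markers were above 0 in each library. Kif2a itself averaged 85.6 ± 4.87 CPM in control and 67.9 ± 1.70 CPM in cKO libraries (SD, n = 3), 79.3% of control with no overlap, and Avil was at 49.2% of control. Neither passed over all genes in edgeR (adjusted p of 0.9999 and 0.444).

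The tubulin mRNA of the ganglion was dominated by Tubb3 on the beta side and Tuba1a on the alpha side. Levels between genes are compared as CPM per kb of annotated exon. Tubb3, the neuronal class III beta tubulin, was highest at 1080 ± 159 CPM per kb over the 6 libraries (SD). Tuba1a, the main alpha tubulin of postmitotic neurons, followed at 603 ± 20.4 CPM per kb. Tubb5, a beta tubulin expressed in most cell types, was at 370 ± 35.2 CPM per kb and Tubb2a, a neuronal class II isotype, at 340.0 ± 28.4. Tubb5 was above Tubb2a in 5 of the 6 libraries and their ranges overlapped, so these neighbours cannot be ordered with confidence. Tubb4a, a class IV isotype known from neurons and oligodendrocytes, and Tubb4b, a broadly expressed class IV isotype also used in cilia, were at 227 ± 49.95 and 209 ± 25.8 CPM per kb. Tubb4a and Tubb4b changed places between libraries, Tubb4a being higher in 4 of 6. The ranges of Tubb2a and Tubb4a overlapped as well, although Tubb2a was the higher in each library, by a geometric mean of 1.52-fold.

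Lower in the order stood Tubb2b at 126 ± 8.71 CPM per kb and Tuba4a at 88.7 ± 15.4. Tubb6, a class V isotype that is scarce in most neurons, was at 9.95 ± 2.10 CPM per kb, and Tuba8, known from muscle and testis, was at 1.08 ± 0.278. Each of the first 3 was above the next in all 6 libraries, with no overlap of their ranges. Tuba4a exceeded Tubb6 by a geometric mean of 8.98-fold and Tubb6 exceeded Tuba8 by 9.31-fold. Tuba8 had between 33 and 79 counts per library and Tubb6 between 360 and 692, against at least 5683 for each of the other members, so counting error is largest for these rare isotypes. The middle of this order depends on the length used. Per kb of coding length, added after seeing the data, Tubb5 was above Tuba1a in all 6 libraries, at 924 ± 88.0 against 803 ± 27.2 CPM per kb, with overlapping ranges. Tuba4a, at 244 ± 42.4 CPM per kb, was then above Tubb2b, at 217 ± 15.0, in 5 of 6 libraries, and their ranges overlapped. Per kb of the longest transcript Tubb4b was above Tubb4a in all 6 libraries. Tubb3 was highest and Tubb6 and Tuba8 lowest with each of the 3 lengths.

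As shares of the summed beta tubulin level per kb, Tubb3 made up 45.6 ± 2.58% in control and 45.5 ± 2.38% in cKO libraries (SD, n = 3). Tubb5 held 15.8 ± 1.26% and 15.6 ± 0.996%, and Tubb2a held 14.1 ± 0.675% and 14.8 ± 1.54%. Tubb4a was at 9.58 ± 0.762% and 9.52 ± 1.81%, Tubb4b at 8.87 ± 0.0125% and 8.84 ± 0.409%, and Tubb2b at 5.56 ± 0.315% and 5.20 ± 0.695%. Tubb6 contributed 0.380 ± 0.0984% in control and 0.478 ± 0.146% in cKO libraries. For each of these 7 isotypes the range of shares in the cKO libraries overlapped that of control. A share within a library does not depend on how libraries are scaled against each other.

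On the alpha side Tuba1a made up 72.3 ± 1.43% of the summed level per kb in control and 71.7 ± 2.35% in cKO libraries. Tuba4a held 10.3 ± 1.43% and 10.8 ± 1.49%, and Tuba8 held 0.144 ± 0.0241% and 0.118 ± 0.0513%. The remainder came from Tuba1b and Tuba1c, at 13.5% and 3.81% over the 6 libraries. The alpha shares overlapped between groups as well. The summed beta level stood at 2.78, 2.90 and 2.89 times the summed alpha level in control replicates 1 to 3 and at 2.48, 3.19 and 2.67 times in the cKO replicates. The cKO values lay on both sides of the control range. Tuba1a shared 75.5% of 50-base windows with other genes and Tubb3 shared 0%. The size of the ratio may thus depend on how reads with several matches were counted, which is not stated.

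**Figure D1:**
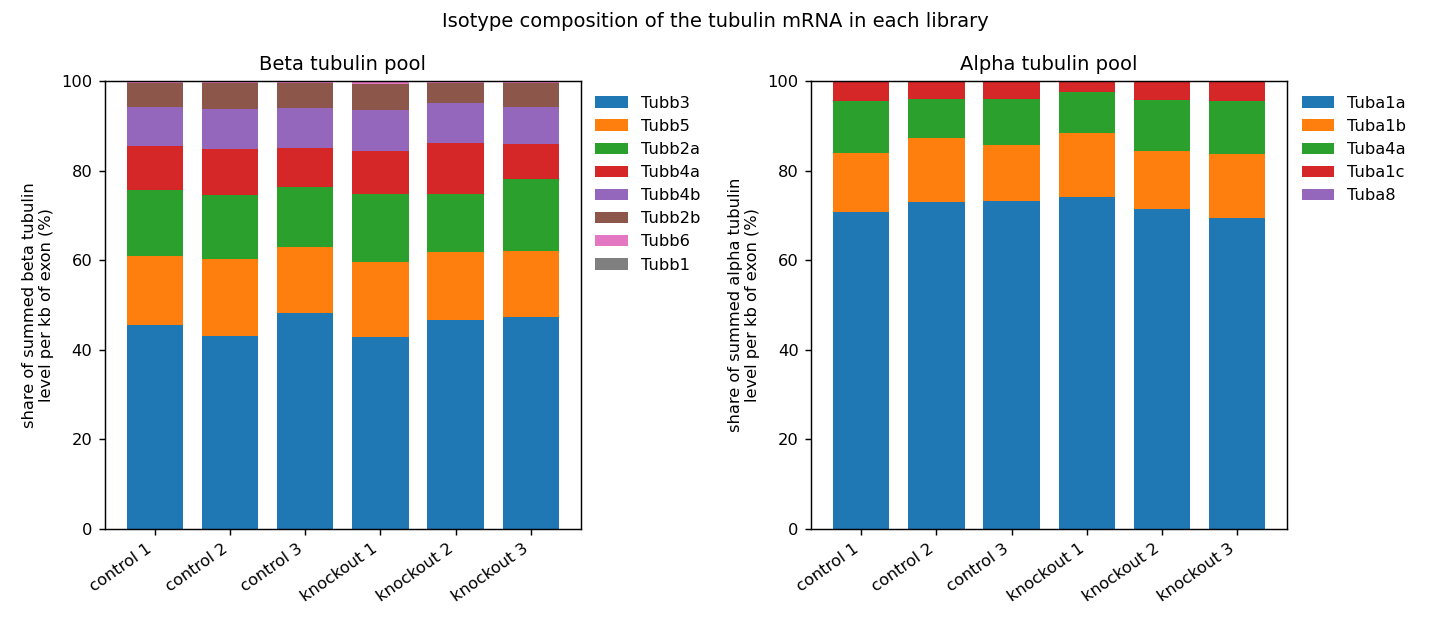
Stacked bars give each isotype's share, in percent, of the summed beta (left) or alpha (right) tubulin level per kb of exon in each of the 6 libraries. Tubb3 holds between 42.8% and 48.2% of the beta pool and Tuba1a between 69.5% and 74.2% of the alpha pool in every library, in both groups.

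Against this background, 0 of the 10 members passed over all genes in the comparison of cKO with control. With edgeR's quasi-likelihood test, 0.0225% of the 17759 tested genes passed at a Benjamini-Hochberg adjusted p under 0.05, so a count of 0 among 10 genes does not set the tubulins apart. At an unadjusted p under 0.05 the count was also 0 of 10, where 4.67% of tested genes passed. DESeq2 called 0 members and 0.127% of all genes. The edgeR adjusted p was 0.9999 for each member. Of the 10 log2 fold changes 3 were above 0 and 7 below, with a median of -0.03 beside 0.01 for all tested genes. Those of Tubb3, Tubb4a and Tuba1a were so close to 0 that they turned positive with upper quartile scaling. In the authors' deposited table none of the members carries the mark of a called gene, and the smallest rate among them there is 0.667, for Tubb2b.

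Tubb3 was at 2090, 1850 and 2175 CPM in the control libraries, in order of replicate number, and 1548, 2418 and 2022 CPM in the cKO libraries. The cKO libraries included both the lowest and the highest value. The log2 fold change was -0.03 ± 0.18 (SE), with a 95% interval from -0.45 to 0.38, or 73.5% to 130.6% of control. Shifts within these bounds, in either direction, remain possible with 3 libraries a group. The interval holds for this gene alone and does not give the size of change that would pass over all genes. Avil, at 49.2% of control, did not pass over all genes in edgeR, where its p was 0.000225 unadjusted and 0.444 adjusted. In bulk tissue, fewer neurons and less RNA per neuron cannot be told apart.

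The class II isotypes Tubb2b and Tubb2a had different patterns over the libraries, and neither passed the test. Tubb2b, which is high in developing neurons, was at 294, 306 and 315 CPM in control and 260, 285 and 277 CPM in cKO libraries. All 3 cKO libraries were below all 3 control libraries. Its log2 fold change was -0.15 ± 0.11 (SE), with a 95% interval from -0.41 to 0.10, an unadjusted edgeR p of 0.200 and an exact two-sided permutation p of 0.1, the smallest that 3 against 3 libraries allow. Tubb2b was the 1 member whose groups did not overlap, and 8.66% of tested genes had groups that did not overlap, so 1 of 10 is near that background. Tubb2a, its near-identical neighbour, was at 580, 532 and 520 CPM in control and at 476, 584 and 592 CPM in cKO libraries. The groups overlapped, with a log2 fold change of 0.02 ± 0.14. The ratio of Tubb2b to Tubb2a counts within a library was 0.507, 0.575 and 0.607 in control and 0.547, 0.488 and 0.467 in cKO libraries, and these ranges overlapped too.

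The class IV isotypes Tubb4a and Tubb4b spread more widely over cKO than over control libraries. Tubb4a was at 537, 524 and 471 CPM in control and at 411, 700 and 393 CPM in cKO libraries. cKO replicate 2 was above every control library, while replicates 1 and 3 were below every control library. The means were 511 ± 35.4 and 502 ± 172 CPM (SD, n = 3), and the log2 fold change was -0.03 ± 0.22. Without cKO replicate 2 it was -0.34 ± 0.11, where edgeR gave p values of 0.0158 unadjusted and 0.283 adjusted. Without cKO replicate 1 it was 0.11, and without cKO replicate 3 it was 0.14. Tubb4b was likewise highest in cKO replicate 2 and below the control range in the other cKO libraries, over a narrower span, at 455, 427 and 448 CPM in control and 367, 525 and 401 CPM in cKO libraries. Its log2 fold change was -0.04 ± 0.15.

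Tubb5, the isotype shared by most cell types, was at 1269, 1319 and 1187 CPM in control and at 1078, 1394 and 1142 CPM in cKO libraries. cKO replicates 1 and 3 were again below and replicate 2 above the control range. The log2 fold change was -0.06 ± 0.15, with a 95% interval from -0.39 to 0.27. Tubb6 was at 28.7, 15.8 and 22.4 CPM in control and at 29.6, 22.6 and 26.5 CPM in cKO libraries. Control replicate 2 held the lowest value and cKO replicate 1 the highest. The log2 fold change of Tubb6 was 0.24 ± 0.21, and leaving out control replicate 2, its lowest library, gave 0.05, while leaving out control replicate 1 gave 0.46 and cKO replicate 1 gave 0.15.

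Tuba1a was the steadiest member, at 1126, 1046 and 1103 CPM in control and at 1043, 1123 and 1079 CPM in cKO libraries. Its highest library exceeded its lowest by 1.08-fold, against between 1.21-fold and 2.25-fold for the other 9 members. The log2 fold change was -0.01 ± 0.12, with a 95% interval from -0.29 to 0.27. Tuba4a, whose mRNA encodes an alpha tubulin already lacking the final tyrosine, was at 382, 259 and 319 CPM in control and at 263, 367 and 380 CPM in cKO libraries. The groups covered almost the same span, and the log2 fold change was 0.07 ± 0.19. Tuba8 was at 2.51, 3.07 and 2.55 CPM in control and at 3.02, 1.37 and 2.18 CPM in cKO libraries. Its log2 fold change was -0.31 ± 0.31, with a 95% interval from -1.02 to 0.40. Leaving out cKO replicate 2, the lowest library, gave -0.05, and leaving out cKO replicate 1 gave -0.60.

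**Figure D2:**
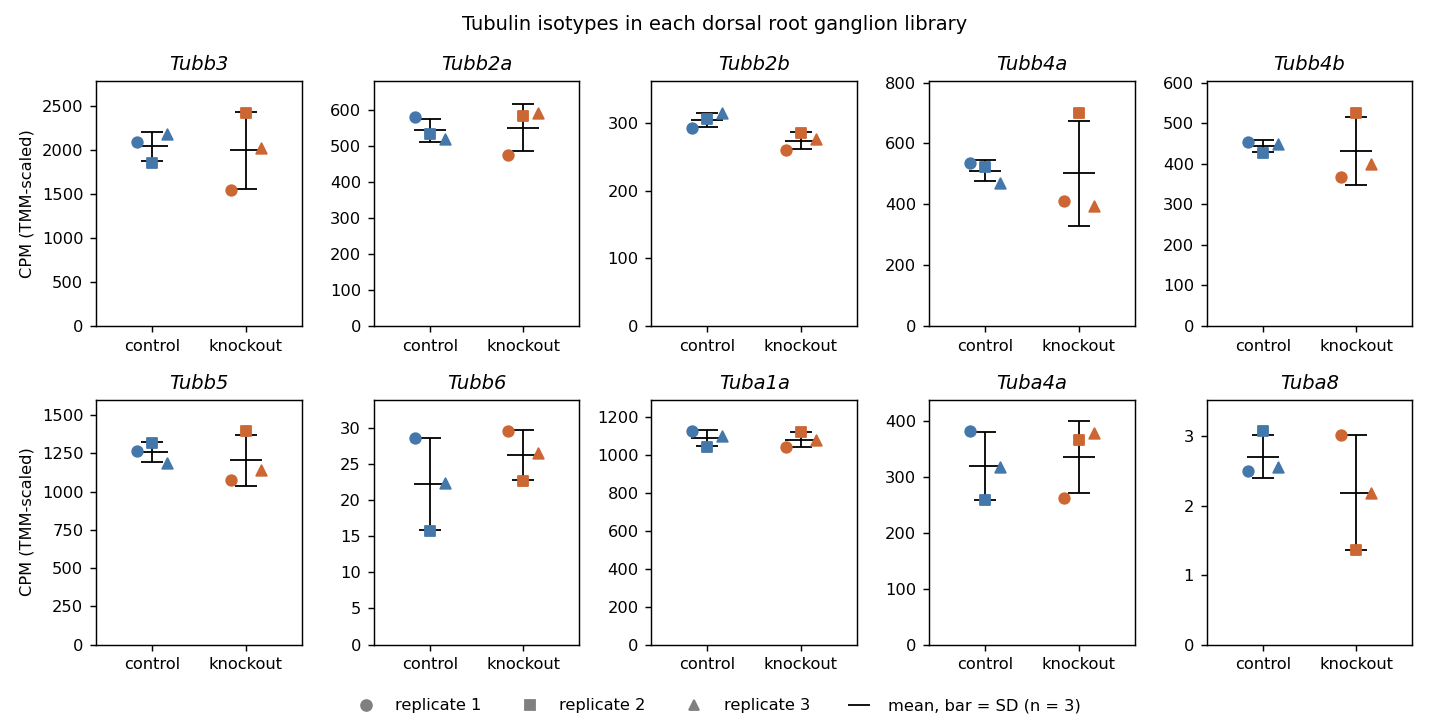
Each panel plots 1 isotype's level in CPM, from 0, for the 3 control (blue) and 3 cKO (orange) libraries, with marker shape for the replicate number and the group mean with SD as a bar (n = 3). The groups overlap in every panel except that of Tubb2b, and the cKO libraries spread widely for Tubb4a, from 393 to 700 CPM.

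**Figure D3:**
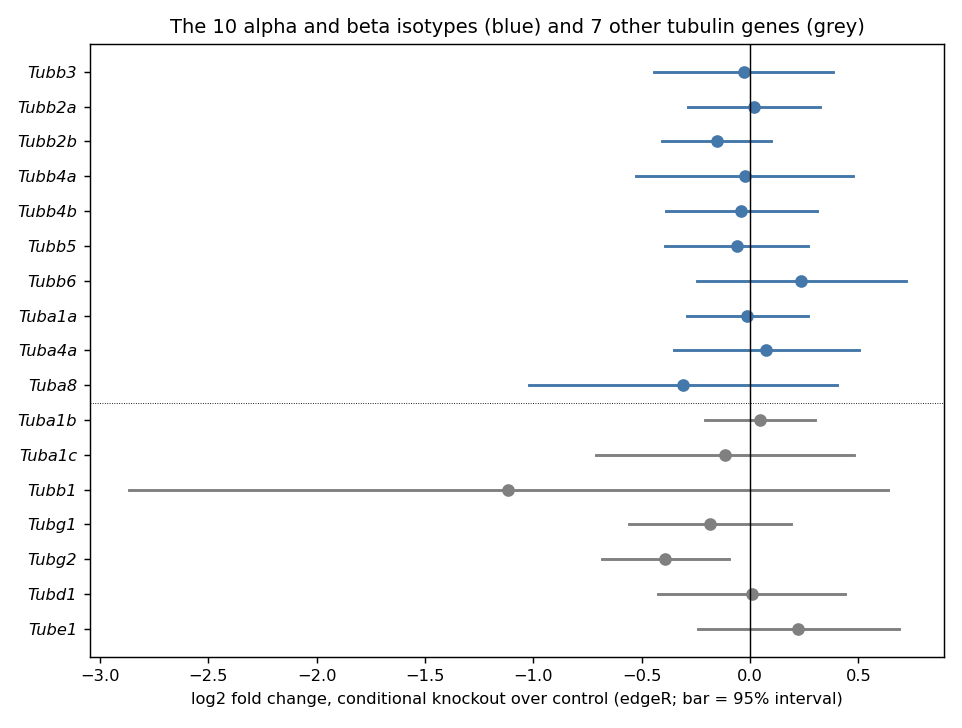
Points give the log2 fold change of cKO over control and bars its 95% interval from edgeR, for the 10 isotypes in blue and 7 other tubulin genes in grey. The intervals of all 10 isotypes include 0, and that of Tubg2 among the others, from -0.68 to -0.10, does not.

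The cKO libraries held most of the extreme values, as they did over all tested genes. The lowest of the 6 libraries was a cKO library for 8 of the 10 members and the highest for 6. The range over cKO libraries was wider than over control libraries for 8 of the 10 members, beside 68.8% of all tested genes. cKO replicate 1 was the lowest of the 6 libraries for 6 members, and cKO replicate 2 was the highest for 4. For all tested genes these shares were 20.4% and 23.1%. Summed over the members, the level was 6763, 6282 and 6562 CPM in control and 5481, 7422 and 6313 CPM in cKO libraries.

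The sum of the sensory neuron markers varied alongside Tubb3 across libraries. The 12 sensory neuron markers, from Rbfox3 to Syt1, summed to 13487, 10937 and 13157 CPM in control and to 9496, 14294 and 11597 CPM in cKO libraries. Nefl and Nefh were the largest terms of this sum in each library, from 2077 to 3181 CPM and from 1772 to 2883 CPM, so they weighed most in it. Tubb3 followed this sum closely. Its log2 ratio to it was -2.69, -2.56 and -2.60 in control and -2.62, -2.56 and -2.52 in cKO libraries, a span of 0.17, where Tubb3 itself spanned 0.64 on the log2 scale. The cKO mean of that ratio was above the control mean by 0.05, and by 0.12 when the median deviation of the 12 markers was used in place of their sum. That median was 0.03, 0.06 and 0.16 in control and -0.31, 0.18 and -0.12 in cKO libraries. Tubb3 deviated by 0.06, -0.11 and 0.12 and by -0.37, 0.28 and 0.02, with the other sign in control replicate 2 and cKO replicate 3. Rbfox3 and Pou4f1 were lower in each cKO library than in any control library, and the other markers overlapped. Over all tested genes 8.66% had groups without overlap. In all, 4 of the 10 members spanned less relative to the marker sum than alone. These were Tubb3, Tubb4b with 0.21 against 0.52, Tubb4a with 0.53 against 0.83 and Tuba4a with 0.47 against 0.56. The other 6 spanned more relative to the marker sum. Tuba1a spanned 0.48 against 0.11 alone, Tubb2b 0.49 against 0.28, Tubb5 0.42 against 0.37 and Tubb2a 0.37 against 0.31. Tubb6 spanned 1.11 against 0.90 and Tuba8 1.74 against 1.17.

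**Figure D4:**
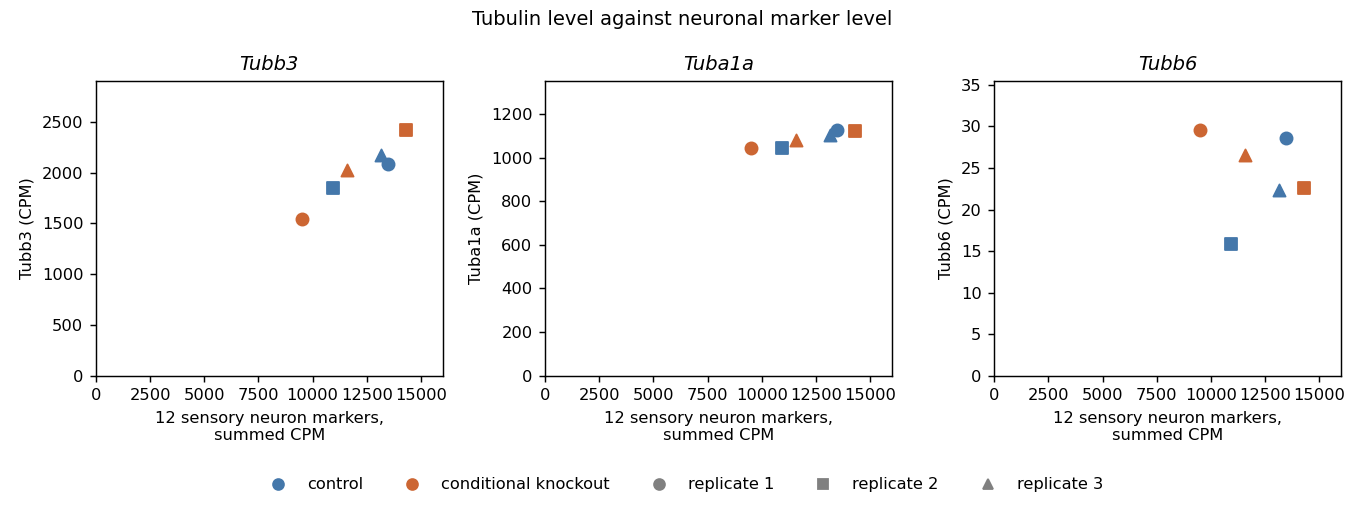
Each point is a library, with the summed CPM of 12 sensory neuron markers on the x axis and the CPM of Tubb3, Tuba1a or Tubb6 on the y axis, all axes from 0. Tubb3, from 1548 to 2418 CPM, is lowest and highest in the libraries where the marker sum is lowest and highest, Tuba1a stays between 1043 and 1126 CPM, and Tubb6 is lowest in control replicate 2 at 15.8 CPM.

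Between cKO replicates 1 and 2, markers of several other cell types differed in the opposite direction. The 6 fibroblast markers summed to 3745 CPM in cKO replicate 1 and 961 CPM in replicate 2, with the control libraries between 1647 and 2085. The 8 Schwann cell markers summed to 9440 CPM in cKO replicate 1, 3918 in replicate 2 and 5074 in replicate 3, and to between 5834 and 7403 CPM in control. The 8 macrophage markers were at 271 and 90.5 CPM in cKO replicates 1 and 2 and between 132 and 160.5 CPM in control. For each of these 3 lists the cKO range enclosed the control range. All markers of these lists were above 0 in every library. The part of tissue makeup in the spread of the tubulins was not tested. The 6 muscle markers were at 349 CPM in cKO replicate 1 and at 4.88 and 5.56 CPM in replicates 2 and 3, with Tuba8 at 3.02, 1.37 and 2.18 CPM in the same libraries. In control the muscle sum was 101, 52.1 and 227 CPM and Tuba8 was at 2.51, 3.07 and 2.55 CPM. The part of muscle RNA in the Tuba8 values was not tested. The 8 CNS markers summed to 133.5 CPM in control replicate 2 and at most 56.5 CPM elsewhere, and Tubb4a there, at 524 CPM, lay between the other control libraries. Of these CNS markers Opalin was at 0 in cKO replicates 2 and 3 and Slc6a5 in cKO replicate 2. The 6 dividing cell markers were at 37.6 CPM in cKO replicate 2, the lowest of the 6 libraries, where the broadly expressed Tubb5 was highest. The 6 satellite glia markers summed to between 5645 and 5963 CPM in control and between 5060 and 6565 CPM in cKO libraries. The 8 endothelial markers ranged from 131 to 156 CPM and from 132 to 204 CPM, and the 8 lymphocyte markers, of which Cd8a was at 0 in control replicate 1, from 17.0 to 33.8 CPM and from 10.6 to 64.4 CPM.

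The summed level of injured neuron markers was higher in each cKO library than in any control library, but only some of its members were. The 6 markers summed to 48.4, 43.8 and 46.8 CPM in control and to 55.0, 64.0 and 67.0 CPM in cKO libraries. Atf3, Sprr1a and Ecel1 had groups that did not overlap, while the groups of Gal, Sox11 and Npy overlapped, so 3 of 6 stand beside 8.66% of all tested genes. Atf3 was at 5.33, 5.31 and 10.8 CPM in control and 14.2, 16.3 and 15.0 CPM in cKO libraries. Sprr1a and Ecel1 were low, Sprr1a from 0.263 to 0.937 CPM in control and from 1.88 to 3.19 CPM in cKO libraries. Ecel1 ranged from 0.658 to 2.49 CPM and from 2.66 to 4.34 CPM. Gal, a neuropeptide gene, was at 30.5, 20.2 and 16.3 CPM in control and 22.9, 21.3 and 27.0 CPM in cKO libraries. Among the tubulin isotypes only Tubb2b had groups that did not overlap, and it was lower, not higher, in the cKO libraries. The part of the injury markers in the tubulin values was not tested.

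**Figure D5:**
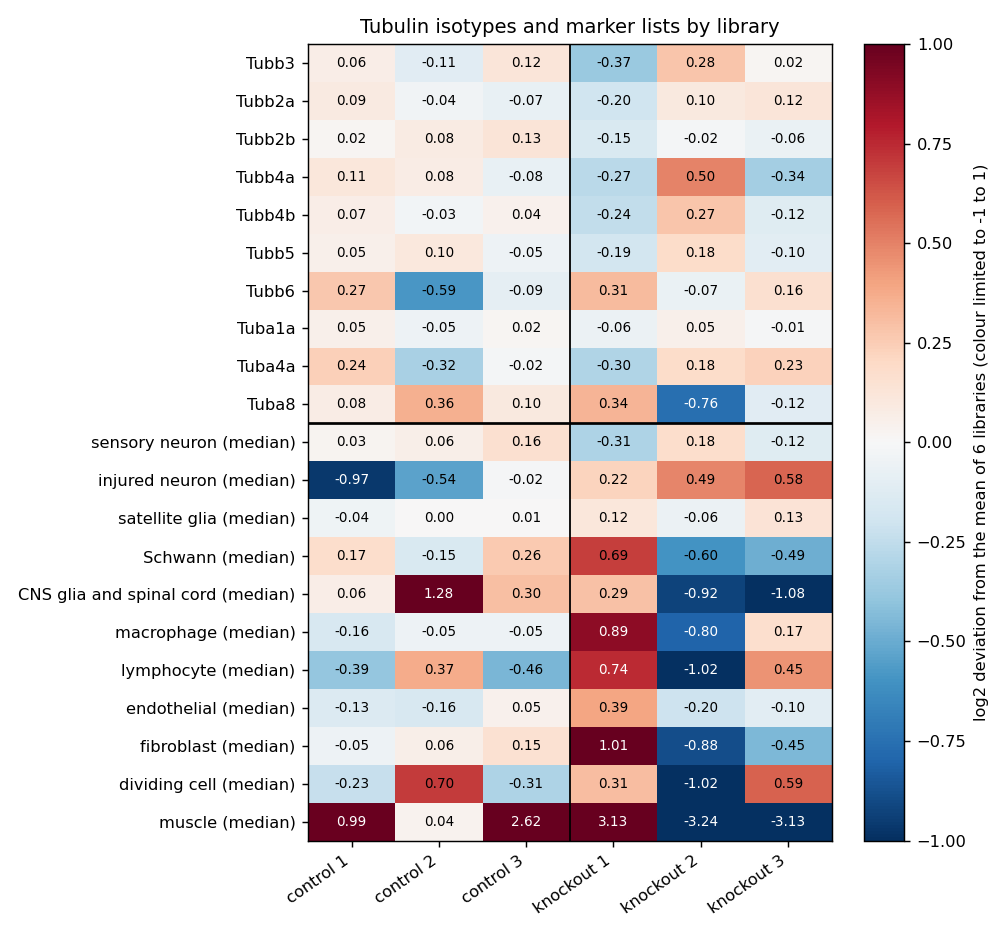
Cells give the log2 deviation from the mean of the 6 libraries for each isotype (above the line) and the median deviation of each marker list (below it), with control libraries left of the vertical line. cKO replicate 1 is low and replicate 2 high for Tubb3, at -0.37 and 0.28, and the sensory neuron list has -0.31 and 0.18 there, while the fibroblast list has 1.01 and -0.88.

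Likeness to other genes was measured as the root mean square difference of log2 deviations over the 6 libraries, among 10256 genes with a mean of at least 10 CPM. Closest to Tubb3 were Cend1, a neuronal gene of cell cycle exit, at 0.028, and Slc35f3, a transporter family gene, at 0.036. Tubb3 itself deviated by 0.201, so both genes followed it to within a small part of its spread. Cend1 was at 456, 410 and 463 CPM in control and at 329, 504 and 431 CPM in cKO libraries. The genes closest to Tubb6 were Calcrl, the receptor subunit for CGRP and adrenomedullin, at 0.106 and Chp2 at 0.112, with Tubb6 itself at 0.303. Closest to Tuba8 were Camk2n1, an inhibitor of CaM kinase II, at 0.086 and the transcription factor gene Ets1 at 0.0998, with Tuba8 itself at 0.375. Among the members the closest pair was Tubb4b and Tubb5 at 0.079, and Tubb3 with Tubb4b was at 0.089. Tubb2a and Tubb2b differed by 0.133. These values describe the 6 libraries, and with so many genes some will match closely in any case.

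Of the other tubulin genes 7 were in the table, and 0 of 7 passed over all genes in edgeR or DESeq2, with 1 at an unadjusted p under 0.05 in each, beside 4.67% of all tested genes in edgeR. Gamma tubulin, which nucleates microtubules in the centrosome and elsewhere, is encoded by Tubg1 and Tubg2. Tubg2 was at 22.2, 25.2 and 22.2 CPM in control and at 15.8, 19.4 and 17.8 CPM in cKO libraries. Its groups did not overlap, as for 8.66% of all tested genes. Its log2 fold change was -0.39 ± 0.13, edgeR's p was 0.0143 unadjusted and 0.9999 adjusted, and without control replicate 2 it was 0.0761 unadjusted. Tubg1 was at 28.7 ± 3.34 and 25.3 ± 5.27 CPM, and its groups overlapped. Tuba1b was at 208.5 ± 10.6 and 215 ± 11.9 CPM and Tuba1c at 76.5 ± 9.71 and 70.5 ± 24.4 CPM (SD, n = 3). Delta tubulin Tubd1 and epsilon tubulin Tube1, which belong to centrioles, had log2 fold changes of 0.01 ± 0.19 and 0.22 ± 0.21.

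Tubulin subunits are folded by prefoldin and the CCT chaperonin and joined into dimers by the cofactors Tbca to Tbce. Of 22 genes of this route all were tested and 0 passed over all genes in edgeR or DESeq2, with 8 log2 fold changes above 0 and 14 below and a median of -0.01. The 8 subunits of CCT had log2 fold changes from -0.04 for Tcp1 to 0.05 for Cct3. Tbcb, the cofactor that handles alpha tubulin, was the 1 gene of 22 with an unadjusted p under 0.05 in edgeR, a share near the 4.67% of all tested genes. It was at 106, 106 and 105 CPM in control and at 96.9, 61.9 and 59.96 CPM in cKO libraries, with no overlap. The log2 fold change of Tbcb was -0.54 ± 0.18, and p was 0.0169 unadjusted and 0.9999 adjusted in edgeR and 0.1 in the exact two-sided permutation test. Tbcb overlaps Polr2i on the opposite strand over 22.5% of its exon bases, so its level is uncertain to that extent. The groups of Tbcc and Pfdn6 did not overlap either, and these are named after their values were seen: Tbcc was at 35.8 ± 0.313 and 31.9 ± 1.43 CPM and Pfdn6 at 47.6 ± 4.84 and 40.9 ± 2.13 CPM. These 3 of 22 genes stand beside 8.66% of all tested genes. Ttc5, which recognises nascent tubulin and triggers decay of its mRNA, is given for that role and averaged 44.7 ± 1.18 CPM in control and 43.3 ± 1.84 CPM in cKO libraries.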

How the data were processed

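Counts of poly(A) RNA from 6 dorsal root ganglion libraries were analysed. The authors deposited 1 table by gene symbol. Its raw counts are whole reads, per the file headers; cutadapt, STAR, DESeq2 and mm10 are named in the submitters' processing notes, without versions, and neither the counting program nor its strand setting is stated there. The normalized signal deposited is the count divided by 1 factor per library. The log2 values (regularized) and log2 fold changes, p-values and fdrtool rates are the authors', per the file headers. Only raw counts entered the tests.

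Counts were fitted across all genes with edgeR 4.0.16 in R 4.3.3: filterByExpr (minimum count 10), TMM, quasi-likelihood F test with robust dispersions and no covariate. Standard errors came from the F statistic. DESeq2 1.42.0 and limma 3.58.1 were alternatives. The test was tried on simulated data. Single genes were also compared by exact permutation. Log2 deviations used a pseudocount of 0.1 CPM. Exon lengths and positions came from GENCODE M21 (GRCm38), which matched all 10 members by symbol. No pair of libraries in a group agreed within sampling noise.

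The members and the gene and marker lists were chosen with earlier results of these data known, so no p is adjusted over a list. The text names the 10 members, other tubulin genes, Kif2a, Avil, folding genes with an unadjusted p under 0.05, and the 2 genes most like Tubb3, Tubb6 and Tuba8. Tbcc, Pfdn6, Ttc5, Tcp1, Cct3 and single markers are named outside this rule, after their values were seen. Some genes that share sequence with a named gene or overlap it are named as well. The tail sequences of 2 members are not reported here.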

Additional observations from a re-analysis of the deposited data

How the results depend on the processing

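Over 15 alternatives, none of the 149 member fits passed over all genes. The lowest adjusted p was 0.283, for Tubb4a with edgeR without conditional knockout replicate 2. The sign of small fold changes did turn, in 28 of these fits, with causes not tested. With upper quartile scaling the log2 fold change was 0.0081 for Tubb3, 0.0086 for Tubb4a and 0.024 for Tuba1a. With library totals only it was 0.0082 for Tubb4a and 0.013 for Tuba1a, and at a mean of at least 5 CPM, where Tuba8 was not kept, Tuba1a was at 0.013. Without both control replicate 2 and conditional knockout replicate 1 it was 0.07 for Tubb3, 0.13 for Tubb4a, 0.05 for Tubb4b, 0.058 for Tubb5 and -0.041 for Tubb6. With each library left out in turn it ranged from -0.19 to 0.14 for Tubb3, -0.024 to 0.13 for Tubb2a, -0.18 to -0.11 for Tubb2b, -0.34 to 0.14 for Tubb4a, -0.20 to 0.076 for Tubb4b, -0.17 to 0.024 for Tubb5, 0.05 to 0.46 for Tubb6, -0.036 to 0.025 for Tuba1a, -0.049 to 0.24 for Tuba4a and -0.60 to -0.05 for Tuba8.

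The 4 genes called over all tested genes became 28 with DESeq2, 2 at a mean of at least 5 CPM, 25 without both of those libraries and from 0 to 13 with 1 library left out. With the replicate block the count was 0. The labels do not say whether replicate numbers pair the libraries. Correlations of same-numbered deviations were -0.15, -0.25 and -0.13, and those of different-numbered deviations ranged from -0.06 to 0.20. Deviations from a mean of 3 libraries are tied to each other, so these values cannot decide the question.

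Shares moved with the exon length used. By longest transcript Tubb3 held 42.5%, Tubb4b 10.8%, Tubb5 18.4% and Tubb6 0.555% of the beta pool, and Tuba1a 68.7% and Tuba4a 13.1% of the alpha pool. By coding length, added after seeing the data because the planned protein lengths could not be used, Tubb3 held 39.5%, Tubb5 24.6%, Tubb2a 10.9%, Tuba1a 63.8% and Tuba4a 19.3%. Over the members alone Tuba1a held 87.1% and Tuba4a 12.7%. The Tubb3 change relative to neuron markers was 0.12 with the list median.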

Other observations

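Tubb1, the beta tubulin of platelets and megakaryocytes, stood apart in a single control library. Control libraries had 1.19, 8.12 and 1.52 CPM, in order of replicate number, against 1.56, 2.03 and 1.37 CPM in conditional knockout libraries, from 26 to 185 counts per library. Its log2 fold change was -1.12 ± 0.74 with all libraries and 0.29 ± 0.34 without control replicate 2. The same library had the highest sum of CNS glia and spinal cord markers, 133.5 CPM, and of dividing cell markers, 119 CPM. Their part in the Tubb1 value was not tested.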
